A study of Mus musculus with 4 samples.

Results

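Neutrophil genes were followed on 4 mouse arrays as a group of 32 genes that encode granule proteins, surface receptors and effector proteins of this cell type. They were taken by symbol, through the RefSeq accession of each non-control probe, and 31 of them had a probe, 33 probes in all, out of 20619 named genes and 39429 probes on the array. Ly6g, which encodes the Gr-1 surface antigen used to sort mouse neutrophils, had no matching probe. For description the genes were set in 3 groups: 4 primary granule genes, 13 genes of the secondary and gelatinase granules with a regulator of those granules, and 15 genes of the cytosol, receptors and effectors of the mature cell.

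The RNA was that of lamina propria lymphocytes, a preparation of immune cells from below the epithelium of the gut, from C57BL6 mice on day 10 after dextran sulfate sodium (DSS), which damages the colon and brings on colitis. LIF is leukemia inhibitory factor, which belongs with interleukin-6 to a family of cytokines. The groups were Stat4-/- DSS+LIF, Stat4-/- DSS, wild type DSS+LIF and wild type DSS. Every group had been given DSS and is represented by 1 array, with 5 mice per group, and the labels do not say whether their RNA was pooled. Because no group has a replicate array, differences have no replicate check, no p-value was computed, and genes were counted by size, at 2-fold or more.

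Neutrophils are short-lived granulocytes that are made in the bone marrow and enter inflamed gut in large numbers. Their granules are filled in sequence during maturation. Primary granule proteins such as myeloperoxidase and the serine proteases are transcribed in promyelocytes, secondary granule proteins in myelocytes and gelatinase granule proteins later still, while cytosolic S100 proteins and chemotactic receptors mark the mature cell. The transcription factors PU.1 and C/EBP drive much of this programme, and C/EBP epsilon is needed for the secondary granule genes.

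Promoter sequences are shown for the letters that these factors are known to bind, as descriptions by group. Promoters here are the 250 bases before the gene's start in the RefSeq promoter table of build GRCm38.p6, which gave those of 29 of the 32 genes (not Mmp9, Hp and Cebpe). The pattern TTGCNNAA, the core of a C/EBP site, was searched on both strands and stood in 9 of the 29 (31.0%), against 10.8% of 27025 genes with a promoter in the table. It stood in 5 of 10 secondary granule genes, 4 of 15 mature cell genes and 0 of 4 primary granule genes. The pattern GAGGAAG, a PU.1 type site, stood in 11 of the 29 (37.9%), against 12% of all genes, and in each of the 4 primary granule genes. The promoters below were chosen by pattern, 5 of genes higher in the labelled knockout that hold the C/EBP pattern and 2 of primary granule genes that hold the PU.1 pattern. Camp, Chil3 and S100a8, with some of the highest differences, held no match to TTGCNNAA. They are written 5′ to 3′ on the gene's strand, with matches to either pattern, in either orientation, in capitals.
Ngp: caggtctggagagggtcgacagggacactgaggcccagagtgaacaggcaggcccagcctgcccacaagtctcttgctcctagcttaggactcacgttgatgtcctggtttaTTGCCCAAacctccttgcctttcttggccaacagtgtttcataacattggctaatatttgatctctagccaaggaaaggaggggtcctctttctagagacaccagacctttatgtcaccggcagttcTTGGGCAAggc
Lcn2: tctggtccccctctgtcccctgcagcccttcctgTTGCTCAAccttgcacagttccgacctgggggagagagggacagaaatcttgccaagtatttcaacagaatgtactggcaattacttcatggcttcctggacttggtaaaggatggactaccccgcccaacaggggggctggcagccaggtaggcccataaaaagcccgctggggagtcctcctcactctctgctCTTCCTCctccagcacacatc
Mmp8: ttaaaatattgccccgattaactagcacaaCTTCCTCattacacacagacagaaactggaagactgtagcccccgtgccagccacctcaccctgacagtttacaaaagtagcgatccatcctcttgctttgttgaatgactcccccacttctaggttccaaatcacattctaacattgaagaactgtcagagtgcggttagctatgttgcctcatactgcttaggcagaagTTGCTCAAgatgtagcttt
S100a9: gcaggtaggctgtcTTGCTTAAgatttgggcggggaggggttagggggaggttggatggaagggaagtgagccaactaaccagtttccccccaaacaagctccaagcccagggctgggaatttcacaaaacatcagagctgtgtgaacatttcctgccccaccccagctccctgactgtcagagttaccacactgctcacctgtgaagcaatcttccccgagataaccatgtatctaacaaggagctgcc
Retnlg: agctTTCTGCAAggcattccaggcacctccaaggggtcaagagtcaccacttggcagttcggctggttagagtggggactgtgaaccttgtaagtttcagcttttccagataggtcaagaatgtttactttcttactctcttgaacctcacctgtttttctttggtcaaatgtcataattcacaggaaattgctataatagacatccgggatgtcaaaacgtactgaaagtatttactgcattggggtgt
Elane: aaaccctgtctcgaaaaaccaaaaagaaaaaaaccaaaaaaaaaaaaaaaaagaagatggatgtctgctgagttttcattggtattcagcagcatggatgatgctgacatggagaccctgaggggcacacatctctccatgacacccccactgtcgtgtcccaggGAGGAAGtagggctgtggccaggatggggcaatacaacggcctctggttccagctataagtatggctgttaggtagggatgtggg
Prtn3: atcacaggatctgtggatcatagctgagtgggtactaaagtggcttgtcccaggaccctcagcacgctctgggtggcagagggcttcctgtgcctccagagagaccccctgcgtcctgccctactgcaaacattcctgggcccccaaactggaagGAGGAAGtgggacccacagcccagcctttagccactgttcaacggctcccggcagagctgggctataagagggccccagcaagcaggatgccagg
The genomic windows of these promoters were chr9:110419558-110419807 (+) for Ngp, chr2:32387740-32387989 (-) for Lcn2, chr9:7558179-7558428 (+) for Mmp8, chr3:90695722-90695971 (-) for S100a9, chr16:48872358-48872607 (+) for Retnlg, chr10:79886062-79886311 (+) for Elane and chr10:79879417-79879666 (+) for Prtn3. Matches are descriptions of letters and were not tested as binding sites. Other patterns searched on both strands gave TTCNNNGAA, a STAT type site, in 6 of 29 (20.7%, against 8.13% of all genes), TTNNGNAAT in 6 (20.7%, against 11.7%), TTNCNNNAA, which overlaps the C/EBP pattern, in 11 (37.9%, against 36.2%), and both TTGCGCAA (0.185% of all genes) and CCGGAAGT (3.23%) in 0.

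The arrays differed in brightness, and this sets what can be measured. The 75th percentile of the processed signal, by which each array was scaled, was 43.29 for Stat4-/- DSS+LIF, 45.26 for Stat4-/- DSS, 23.78 for wild type DSS+LIF and 122.9 for wild type DSS, and between 37.6% and 61.8% of probes were well above background by the scanner software's mark. Levels below are log2 processed signals minus the log2 of that percentile, so a level of 0 is the array's 75th percentile, and levels of different genes are not compared. The array of wild type DSS+LIF stood apart, with Pearson correlations of 0.800 to 0.817 with the others over 12726 probes well above background on all 4, against 0.951 to 0.980 among the other arrays (probes are not independent replicates). Stat4 had levels of −0.48 in Stat4-/- DSS+LIF, 0.31 in Stat4-/- DSS, 0.21 in wild type DSS+LIF and −0.49 in wild type DSS, so its probe did not separate the genotypes. Whether the probe lies in the deleted part is not stated in the labels, so the arrays are called labelled knockout. T cell markers were above background for 12 or 13 of 13 genes and B cell markers for 9 to 11 of 12 on each array. The 2 arrays under DSS were read in the same scan and the others in separate scans, so under LIF the scan and the group cannot be told apart.

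Of the 31 genes, 14 were well above background on all 4 arrays, 8 on 3, 4 on 2, 2 on 1 and 3 on none. Of all 20619 named genes, 8045 were well above background on all 4. The 3 on none were Ltf (lactoferrin), Mmp9 (gelatinase B) and Itgb2l (a leukocyte integrin beta subunit like gene). Mmp9 had 9 or 10 usable spots per array, of which 2 were well above background in the labelled knockout DSS+LIF and 0 on each of the other arrays. On single arrays 24 genes were above background in the labelled knockout DSS+LIF, 23 in the labelled knockout DSS, 16 in wild type DSS+LIF and 27 in wild type DSS. The shares of all probes above background were 45.9%, 44.9%, 37.6% and 61.8% on these arrays, and rank the arrays in the same way.

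**Figure D1:**
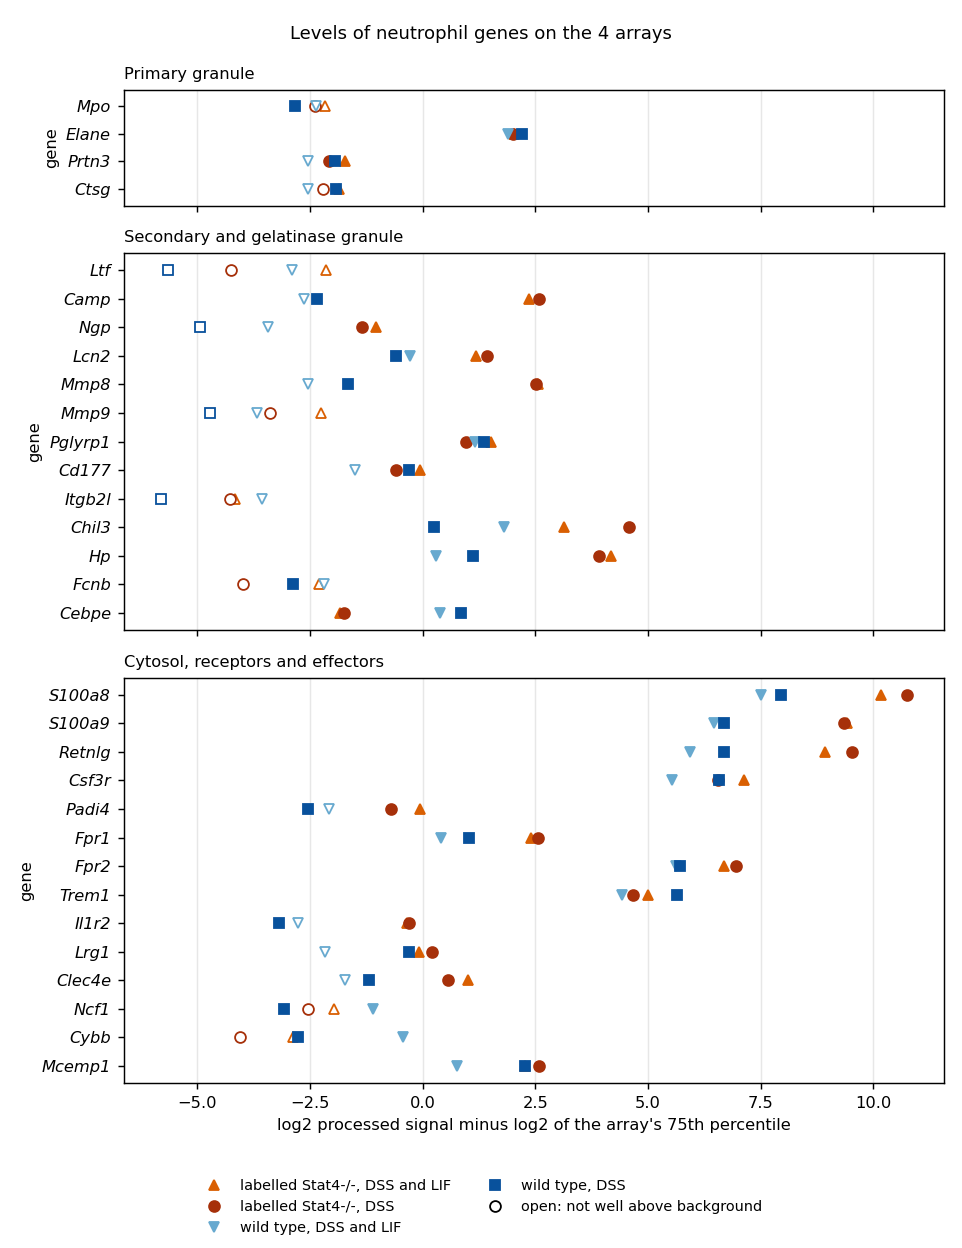
Levels of the 31 neutrophil genes with a probe, by group of genes, on the 4 arrays. The horizontal axis is the log2 processed signal minus the log2 of the array's 75th percentile, each symbol is 1 array, and open symbols were not well above background. S100a8, S100a9, Retnlg, Chil3 and Hp sit further right on both labelled knockout arrays than on both wild type arrays, Elane lies between 1.89 and 2.20 on the 4 arrays, and Cebpe runs the other way.

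The first comparison asks which neutrophil genes differ with Stat4 in the inflamed tissue without LIF, and both of its arrays were read together. Higher by 2-fold or more in the labelled knockout were 5 of 8 measured secondary granule genes and 8 of 12 measured genes of the mature cell, with 0 of 2 measured primary granule genes. The difference between these groups was not tested. Of 22 genes measured on both arrays, 13 were at least 2-fold higher, against 13.2% of the 10501 genes measured, and 1 was at least 2-fold lower, against 6.81%. The median log2 difference was 1.65 over the 22 genes and 0.08 over all measured genes. With another background correction, normexp with an offset of 50 followed by quantile scaling, the medians were 0.59 and 0.01. In bulk RNA, fewer cells of a type and less RNA per cell cannot be told apart, so these differences may be of either kind.

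Of the 4 primary granule genes, 2 had a value under DSS, and both lay within the scanner error of 0. Elane, which encodes neutrophil elastase, had levels of 2.03 in the labelled knockout DSS+LIF and 2.00 with DSS, and 1.89 in wild type DSS+LIF and 2.20 with DSS. The 4 arrays lie close together, and the difference under DSS was −0.20 ± 0.20, where the error is that of the scanner software's error model and covers the spot alone. Prtn3, which encodes proteinase 3, had levels of −2.08 in the labelled knockout and −1.94 in wild type under DSS, a difference of −0.14 ± 0.36. Ctsg, which encodes cathepsin G, passed the background mark on the wild type array but not on the labelled knockout array under DSS. Its bound was 1.16-fold lower (−0.21 on the log2 scale) and sets no upper limit. The scanner error of the difference between its signals was 0.40. Mpo, which encodes myeloperoxidase, was well above background in wild type DSS alone, at −2.84, and its dim signals on the other arrays allow no fold. The summed level of the 4 genes, in units of the array's 75th percentile, was 4.89 and 4.65 in the labelled knockout with and without LIF and 4.25 and 5.26 in wild type with and without LIF.

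Secondary granule genes held the 3 highest differences of the 22, Camp, Chil3 and Mmp8. With normexp (offset 50) Chil3 (3.08) was followed by Retnlg (2.49), S100a9 (2.32) and S100a8 (2.3) of the mature cell, ahead of Camp (2.12) and Mmp8 (2.00). Under DSS the labelled knockout was at least 2-fold higher for 5 of 8 measured secondary granule genes and lower for 1, against 13.2% and 6.81% of all measured genes. Their median was 2.41, while the summed level of the 13 genes was 45.4 and 56.6 in the labelled knockout with and without LIF, against 10.4 and 9.97 in wild type. Camp encodes the cathelicidin antimicrobial peptide. Its levels were 2.35 in the labelled knockout DSS+LIF and 2.59 with DSS, and −2.34 in wild type DSS, and it was not well above background in wild type DSS+LIF (measured value −2.63). The labelled knockout arrays lie far above both wild type arrays. The difference under DSS was 4.93 ± 0.24, or 30.5-fold, and the second Camp probe gave 4.06. Mmp8, which encodes neutrophil collagenase, had levels of 2.55 and 2.51 in the labelled knockout with and without LIF and −1.65 in wild type DSS, and was not above background in wild type DSS+LIF (−2.55). Its difference under DSS was 4.16 ± 0.22, or 17.9-fold.

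Chil3 encodes a chitinase-like lectin that neutrophils and alternatively activated macrophages make. Its levels were 3.13 in the labelled knockout DSS+LIF and 4.57 with DSS, and 1.80 in wild type DSS+LIF and 0.24 with DSS. Both labelled knockout arrays lie above both wild type arrays, as they do for 16.2% of 8045 genes measured on all 4. The difference under DSS was 4.33 ± 0.21, or 20.1-fold. Hp, which encodes the hemoglobin-binding protein haptoglobin, had levels of 4.18 and 3.90 in the labelled knockout with and without LIF, and 0.30 and 1.12 in wild type with and without LIF. The groups do not overlap, and the difference under DSS was 2.78 ± 0.20 (6.89-fold). Lcn2, which encodes the iron siderophore-binding protein lipocalin 2, had levels of 1.19 and 1.42 in the labelled knockout with and without LIF, and −0.28 and −0.60 in wild type with and without LIF. The difference under DSS was 2.03 ± 0.21 (4.07-fold), or 0.95 with normexp (offset 50). Epithelial cells also make Lcn2 and haptoglobin is also a liver product, and the part of other cells was not tested.

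Ngp, which encodes neutrophilic granule protein, was above background on both labelled knockout arrays, at −1.04 with LIF and −1.35 without, and on neither wild type array (−3.43 with LIF and −4.93 without). Under DSS it was at least 5.48-fold higher in the labelled knockout, the one gene of the group with a higher bound. Of all genes bounded under DSS, 12.3% reached 2-fold on the higher side and 16.8% on the lower side. Each of the 145 genes with a higher bound reached 2-fold, so passing 2-fold does not set Ngp apart. The dimmest detected probe lay at −3.81 in wild type DSS and −2.13 in the labelled knockout DSS, a gap that enlarges higher bounds.

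Pglyrp1 and Cd177 differed by less than 2-fold under DSS. Pglyrp1, which encodes a peptidoglycan recognition protein of the granules, had levels of 1.52 and 0.96 in the labelled knockout with and without LIF, against 1.16 and 1.37 in wild type, so the groups overlap. The difference under DSS was −0.40 ± 0.21. Cd177, a surface glycoprotein gene of neutrophils, had levels of −0.07 and −0.59 in the labelled knockout with and without LIF, and −0.29 in wild type DSS, and was not above background in wild type DSS+LIF (−1.51). The difference under DSS was −0.29 ± 0.23. Fcnb, which encodes ficolin B of immature myeloid cells, was above background in wild type DSS alone, at −2.87, and allowed no fold, as did Ltf, Mmp9 and Itgb2l.

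Cebpe ran against the granule genes. It encodes C/EBP epsilon, the regulator of secondary granule genes. Its levels were −1.84 and −1.75 in the labelled knockout with and without LIF, and 0.38 and 0.85 in wild type with and without LIF. It carried the well-above-background mark on all 4 arrays. The labelled knockout levels were near the dimmest detected probe of their arrays (−2.04 with LIF and −2.13 without). Their scanner errors were 0.32 and 0.29. Both labelled knockout arrays lie below both wild type arrays, as they do for 24.1% of 8045 genes measured on all 4. The difference under DSS was −2.59 ± 0.32, or 6.04-fold lower. With normexp (offset 50) and quantile scaling it was −0.90, so it no longer reached 2-fold. The gene was measured by 1 probe.

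Genes of the mature cell included high and level members. Under DSS the labelled knockout was at least 2-fold higher for 8 of 12 measured genes and lower for 0, and their median was 1.65. Over all measured genes 13.2% were higher and 6.81% lower, with a median of 0.08. S100a8 and S100a9 encode the subunits of calprotectin, the zinc- and calcium-binding protein that fills neutrophil cytosol. S100a8 had levels of 10.17 and 10.75 in the labelled knockout with and without LIF, and 7.50 and 7.95 in wild type with and without LIF. S100a9 had levels of 9.42 and 9.36 in the labelled knockout with and without LIF, and 6.47 and 6.68 in wild type. For both genes the labelled knockout arrays lie above both wild type arrays, as they do for 16.2% of 8045 genes measured on all 4. The differences under DSS were 2.80 ± 0.20 (6.96-fold) for S100a8 and 2.67 ± 0.20 (6.37-fold) for S100a9. Retnlg, a resistin-like gene of mouse neutrophils, had levels of 8.94 and 9.53 in the labelled knockout with and without LIF, and 5.93 and 6.69 in wild type, a difference of 2.84 ± 0.20 (7.17-fold) under DSS.

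Receptors divided. Fpr1 and Fpr2 encode formyl peptide receptors, which sense bacterial peptides. Fpr1 had levels of 2.39 and 2.56 in the labelled knockout with and without LIF, and 0.40 and 1.02 in wild type, and Fpr2 had 6.69 and 6.96 in the labelled knockout, against 5.62 and 5.71 in wild type. The differences under DSS were 1.54 ± 0.20 (2.90-fold) for Fpr1 and 1.24 ± 0.20 (2.37-fold) for Fpr2. Il1r2, the decoy receptor gene of interleukin-1, was 7.32-fold higher (2.87 ± 0.31), with levels of −0.31 in the labelled knockout and −3.18 in wild type under DSS, or 0.56 with normexp (offset 50). Clec4e, which encodes the mycobacterial glycolipid receptor Mincle, was 3.38-fold higher (1.76 ± 0.22), or 0.63 on the log2 scale with normexp (offset 50).

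Csf3r, which encodes the receptor for granulocyte colony-stimulating factor, lay within the scanner error under DSS. Its levels were 7.12 and 6.55 in the labelled knockout with and without LIF, against 5.54 and 6.57 in wild type with and without LIF, and the difference under DSS was −0.03 ± 0.20. Trem1, which encodes an amplifying receptor of inflammation on myeloid cells, had levels of 5.00 and 4.66 in the labelled knockout with and without LIF, against 4.43 and 5.65 in wild type. The wild type arrays enclose those of the labelled knockout, and the difference under DSS was −0.98 ± 0.20, just short of 2-fold lower. Mcemp1, a myeloid membrane protein gene, differed by 0.32 ± 0.20 and Lrg1, which encodes a secreted leucine-rich glycoprotein, by 0.50 ± 0.22.

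Effector genes were dim. Padi4, which encodes the enzyme that citrullinates histones in neutrophil extracellular traps, had levels of −0.06 and −0.71 in the labelled knockout with and without LIF and −2.54 in wild type DSS. The difference under DSS was 1.83 ± 0.27 (3.56-fold), but its second probe gave −0.04 and normexp (offset 50) gave 0.36, so this gene is uncertain. Ncf1 and Cybb, which encode parts of the NADPH oxidase that makes superoxide, were not well above background on the labelled knockout arrays. Under DSS both were above background in wild type, Ncf1 at −3.09 and Cybb at −2.78, levels under the dimmest detected probe of the labelled knockout array (−2.13), so no fold can be given.

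**Figure D2:**
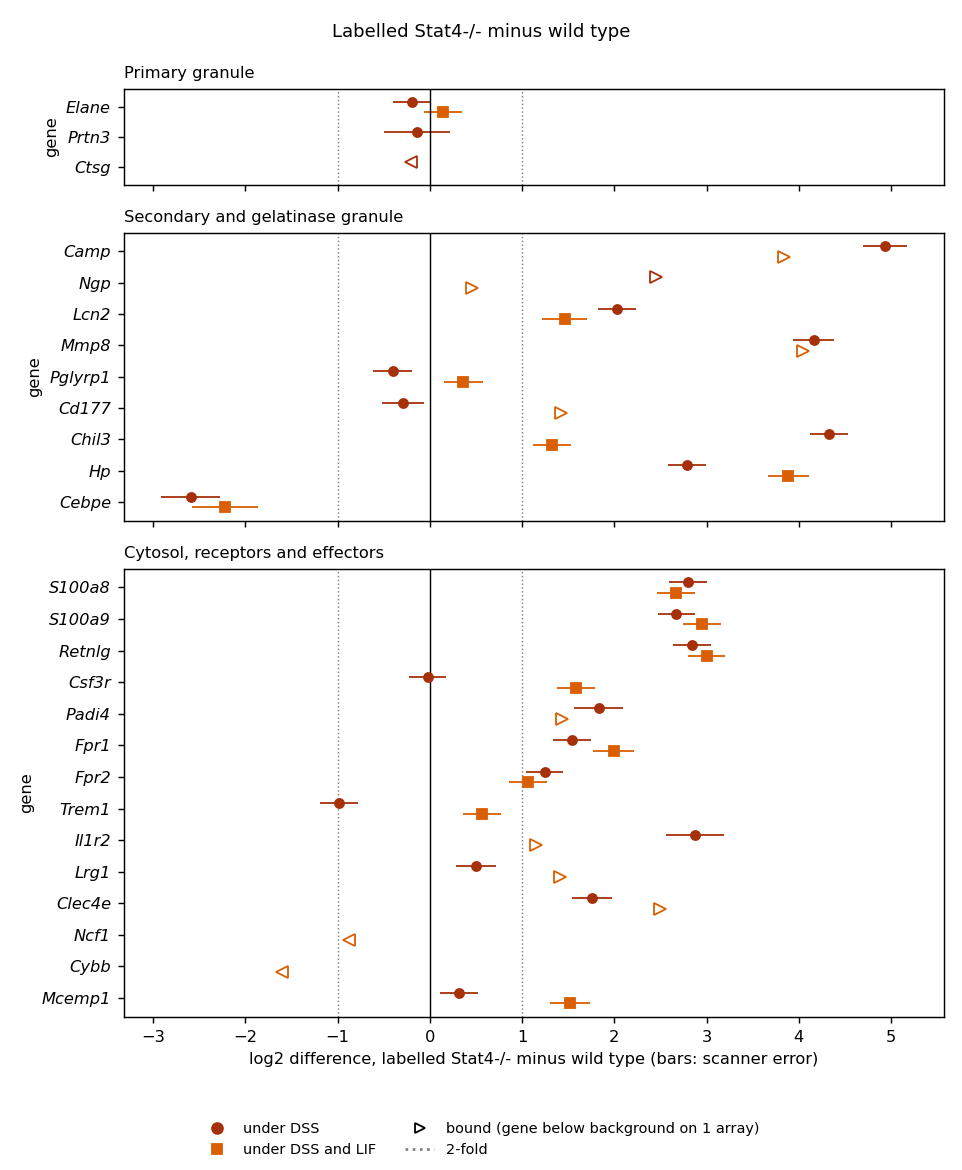
Log2 difference of the labelled knockout minus wild type for each neutrophil gene with a value, under DSS (dots) and under DSS+LIF (squares). Bars show the scanner software's error for single spots, open triangles are bounds of genes below background on 1 array, and dotted lines mark 2-fold. Camp (4.93), Chil3 (4.33) and Mmp8 (4.16) lie furthest right under DSS, Elane lies at −0.20, and Cebpe lies at −2.59 under DSS and −2.22 under DSS+LIF.

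Under DSS+LIF, the same comparison used the array that stood apart. Of 14 genes measured on both arrays, 10 were at least 2-fold higher in the labelled knockout, against 14.1% of 8349 genes, and 1 was at least 2-fold lower, against 31.3%. The median was 1.49 over these genes and −0.45 over all measured genes, or −0.32 over all genes when arrays were centred on the probes above background on all 4. Another 8 genes were higher by a bound, 7 of them at least 2-fold, and 2 were lower by a bound, 1 at least 2-fold. The bounded genes of the whole array reached 2-fold on the higher side in 25.0% and on the lower side in 23.2%.

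S100a8, S100a9 and Retnlg were again high in the labelled knockout. The log2 difference was 2.67 ± 0.20 for S100a8, 2.95 ± 0.20 for S100a9 and 3.00 ± 0.20 for Retnlg. Hp differed by 3.89 ± 0.22 (14.8-fold), Lcn2 by 1.46 ± 0.24 (2.76-fold, or 0.67 on the log2 scale with normexp, offset 50) and Chil3 by 1.33 ± 0.21 (2.51-fold). Fpr1 was 3.98-fold and Fpr2 2.09-fold higher, and Fpr2 was at 0.90 on the log2 scale with normexp (offset 50). Csf3r, at −0.03 under DSS, was 3.00-fold higher here (1.58 ± 0.20), and Mcemp1 was 2.87-fold higher. Trem1 differed by 0.57 ± 0.20 and Pglyrp1 by 0.36 ± 0.21. Elane again lay close to 0, at 0.14 ± 0.21, and was the single primary granule gene with a value. Cebpe was 4.67-fold lower (−2.22 ± 0.36), or −0.84 on the log2 scale with normexp (offset 50).

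Bounds under DSS+LIF covered 8 genes that were dim in wild type and 2 that were dim in the labelled knockout. Mmp8 was at least 16.5-fold and Camp at least 14.3-fold higher in the labelled knockout. Clec4e was at least 5.64-fold, Padi4 at least 2.71-fold, Cd177 at least 2.68-fold and Lrg1 at least 2.66-fold higher. Il1r2 was higher by a bound of 2.21-fold and Ngp by a bound of 1.37-fold. The bound of Ngp was 0.46 on the log2 scale, and the scanner error of the difference between its signals was 1.21. Cybb was at least 3.03-fold lower and Ncf1 at least 1.84-fold lower. Other oxidase subunit genes did not share this direction, since Ncf4 was 1.82-fold and Cyba 1.63-fold higher under DSS+LIF, and 3.24-fold and 1.48-fold higher under DSS.

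Across the 4 arrays, 9 of the 14 genes measured on all of them had both labelled knockout arrays above both wild type arrays, against 16.2% of 8045 genes. They were Lcn2, Chil3, Hp, S100a8, S100a9, Retnlg, Fpr1, Fpr2 and Mcemp1. Mcemp1 belongs by less than the scanner error, with 2.27 in the labelled knockout DSS+LIF and 2.26 in wild type DSS. Cebpe alone had both labelled knockout arrays below both wild type arrays, against 24.1% of genes. Under both treatments 8 of the 14 were at least 2-fold higher in the labelled knockout, against 3.46% of genes, and 1 was at least 2-fold lower, against 3.49%. Without the wild type array DSS+LIF, the count of genes with both labelled knockout arrays above wild type DSS was 15 of 22 genes measured on these 3 arrays, against 43.2% of 9751 genes. In the 14 genes measured on all arrays that count was 9, against 42.5%.

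LIF was compared with no LIF within each genotype. In both genotypes the arrays with and without LIF were read in different scans, so LIF and scan cannot be told apart. The comparison of genotypes under DSS shares an array with each LIF comparison, so values are given side by side and not correlated. In the labelled knockout the counts were near those of all genes. Among 23 genes with a value, 0 were at least 2-fold higher, against 3.21% of 9784 genes, and 1 was at least 2-fold lower, against 3.08%. The median was 0.03 over these genes and −0.01 over all genes. The lower gene was Chil3, with levels of 3.13 with LIF and 4.57 without (−1.44 ± 0.20, 2.71-fold). S100a8 (−0.58 ± 0.20) and Retnlg (−0.59 ± 0.20) lay lower with LIF, while Padi4 (0.65 ± 0.24), Csf3r (0.58 ± 0.20), Pglyrp1 (0.56 ± 0.21) and Cd177 (0.52 ± 0.24) lay higher. With quantile scaling, both normexp settings and the authors' deposited table, S100a8 was at −0.21 to −0.17, near the scanner error. Retnlg was at −0.38 to −0.36 under these settings. With normexp (offset 50) Padi4 and Cd177 were at 0.23, Pglyrp1 at 0.33 and Csf3r at 0.60. Ctsg, above background with LIF alone, was higher by a bound of 1.20-fold, where 8.74% of bounded genes were higher and 7.69% lower by 2-fold or more. The bound of Ctsg was 0.26 on the log2 scale, and the scanner error of the difference between its signals was 0.47.

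In wild type, Mcemp1, Trem1 and Csf3r were at least 2-fold lower with LIF, and Cybb, Ncf1 and Chil3 higher. Of 16 measured genes 3 were at least 2-fold higher with LIF, against 34.5% of 8964 genes, and 3 were at least 2-fold lower, against 13.6%. The median was −0.38 over the 16 genes and 0.57 over all genes, or 0.44 over all genes with centring on the probes above background on all 4 arrays. Lower with LIF were Mcemp1 (0.75 with LIF and 2.26 without, −1.51 ± 0.21), Trem1 (4.43 and 5.65, −1.22 ± 0.20) and Csf3r (5.54 and 6.57, −1.04 ± 0.20). Higher with LIF were Cybb (−0.44 with LIF and −2.78 without, 2.33 ± 0.29), Ncf1 (−1.10 and −3.09, 1.99 ± 0.39) and Chil3 (1.80 and 0.24, 1.56 ± 0.21). With normexp (offset 50) these became 0.39 for Cybb, 0.38 for Ncf1, 0.70 for Chil3, −0.98 for Mcemp1 and −0.90 for Csf3r, all short of 2-fold, and −1.12 for Trem1. The oxidase subunit genes Ncf4 (0.10) and Cyba (−0.25) lay near 0 with LIF in wild type. Another 3 genes were lower by a bound, with bounds of 2.3-fold for Cd177, 2.29-fold for Lrg1 and 1.23-fold for Clec4e. Of all genes with a bound 33.2% were at least 2-fold lower and 14.8% at least 2-fold higher. Each of the 253 higher bounds reached 2-fold, with the dimmest detected probe at −1.49 with LIF and −3.81 without. The bound of Clec4e was −0.30 on the log2 scale, and the scanner error of the difference between its signals was 0.42. Of the 16 genes 12 lay lower and 4 higher with LIF. Hp (−0.82 ± 0.22), Retnlg (−0.75 ± 0.20), Fpr1 (−0.62 ± 0.22) and S100a8 (−0.45 ± 0.20) lay lower, short of 2-fold. With normexp (offset 50) they were at −0.39, −0.59, −0.28 and −0.16. The LIF difference of the labelled knockout minus that of wild type was −0.13 for S100a8 and 0.16 for Retnlg. S100a9 (−0.21 ± 0.20) and Fpr2 (−0.09 ± 0.20) lay near 0. The sign of S100a9 and Fpr2 turned with quantile scaling, with both normexp settings and in the authors' deposited table.

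**Figure D3:**
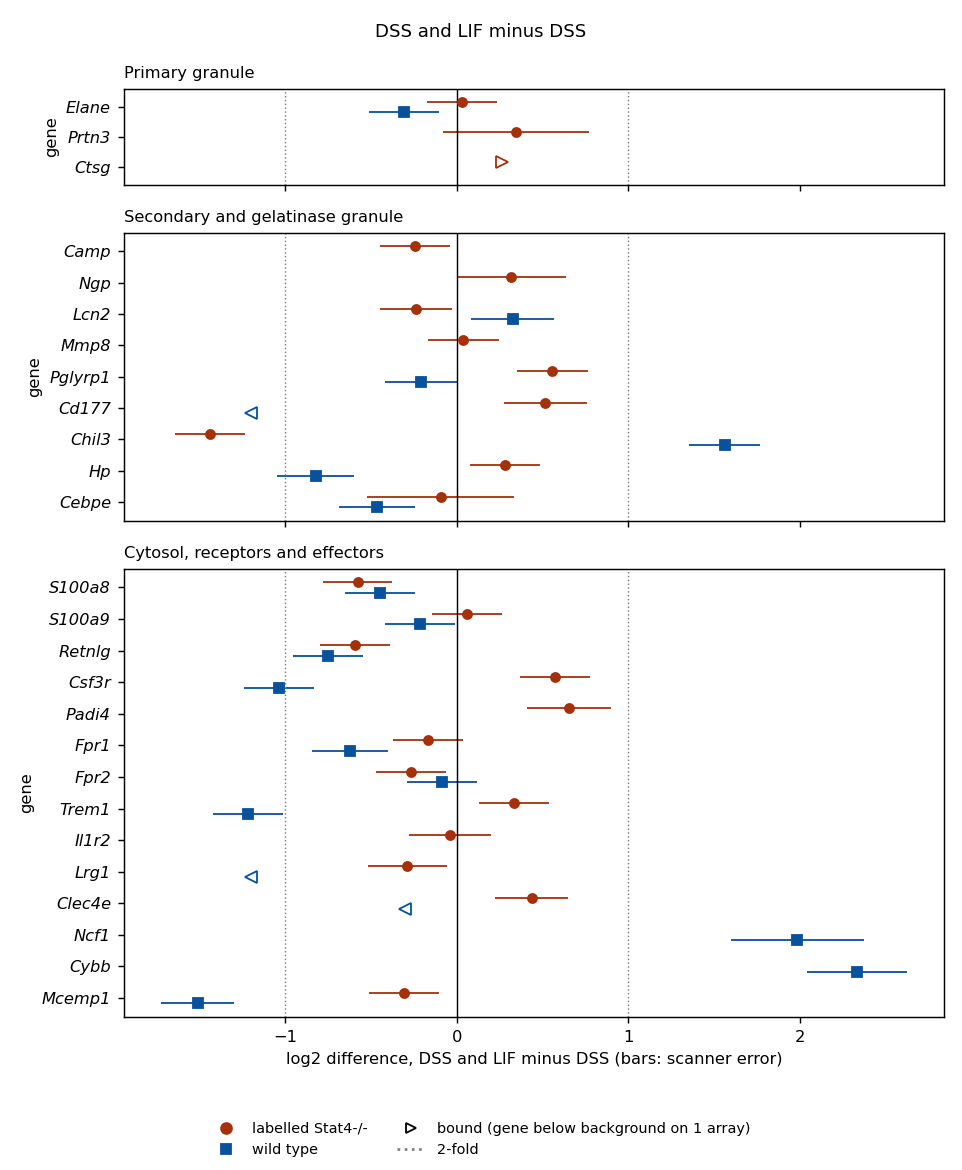
Log2 difference of DSS+LIF minus DSS for neutrophil genes in the labelled knockout (dots) and in wild type (squares). Bars show the scanner software's error, open triangles are bounds and dotted lines mark 2-fold. Chil3 lies at −1.44 in the labelled knockout and 1.56 in wild type, and Mcemp1, Trem1 and Csf3r lie below −1 in wild type alone. Arrays with and without LIF were read in different scans.

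The LIF difference of the labelled knockout exceeded that of wild type by at least 1 (log2) for 4 of the 14 genes measured on all arrays, against 16.7% of 8045 genes, and fell short of it by at least 1 for 1 gene, against 33.4%. The higher ones were Csf3r (1.61), Trem1 (1.55), Mcemp1 (1.20) and Hp (1.1), and the lower one was Chil3 (−3.0). For 8 of the 14 the signs in the genotypes were opposite, against 53.5% of genes, and S100a9 left these 8 where its sign in wild type turned. The median over the 14 genes was 0.36. These differences were not tested, and each of them includes the array that stood apart and arrays of different scans.

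Further neutrophil and granulocyte genes, listed with earlier results of these data known, were counted in the same way under DSS. At least 2-fold higher were 11 of 21 measured genes, against 13.2% of all measured genes, and 1 was lower, against 6.81%. Their median was 1.06. The stefin genes Stfa2, Stfa1 and Stfa2l1, which encode cysteine protease inhibitors and are close copies of each other, were 30.4-fold, 26.5-fold and 11.1-fold higher. Wfdc21, which encodes a whey acidic protein domain protein, was 16.0-fold, Alox5ap, which encodes the 5-lipoxygenase activating protein, 4.86-fold and Anxa1, which encodes annexin A1, 4.33-fold higher. With LIF in the labelled knockout 3 of 21 were at least 2-fold lower, Stfa2 (4.01-fold), Stfa1 (3.48-fold) and Stfa2l1 (2.87-fold), and 0 were higher. Over all measured genes 3.08% were lower and 3.21% higher in that comparison. The lower gene under DSS was Gfi1 (2.37-fold), which encodes a transcription factor needed for neutrophil maturation.

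Signals that draw or sustain neutrophils were followed as a list of 19 genes. Under DSS the labelled knockout was at least 2-fold higher for 4 of 9 measured genes and lower for 0, and their median was 0.97. Over all measured genes 13.2% were higher and 6.81% lower. Lif was 4.27-fold, Osm, which encodes the related cytokine oncostatin M, 4.12-fold, and the chemokine genes Cxcl3 and Cxcl1 2.98-fold and 2.10-fold higher. Ltb4r1, which encodes a leukotriene B4 receptor, differed by 0.97 and Cxcl2 by 0.95. Under DSS+LIF 3 of 5 measured genes were at least 2-fold higher in the labelled knockout, against 14.1% of all measured genes, and 0 lower, against 31.3%. By bounds 2 more reached 2-fold on the higher side, and Cxcl3 was lower by at least 5.55-fold, opposite to its direction under DSS. Csf3, Cxcr2, Il1a and Il23a were well above background on no array, and Il17a, Il17f, Il6, Tnf and Csf2 in wild type DSS alone. The levels of Il17a, Il17f, Il6, Tnf and Csf2 there ran from −3.05 to −2.17. The dimmest detected probe lay higher on the other arrays. It was at −2.04 in the labelled knockout DSS+LIF, −2.13 in the labelled knockout DSS and −1.49 in wild type DSS+LIF. Such levels could not have been detected on those arrays, so no fold can be given.

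Markers of other cells moved as well between the arrays under DSS. Macrophage and monocyte genes, which share a lineage with neutrophils, had 0 of 10 at least 2-fold higher and 0 lower. Their median was −0.01, and their summed level ran from 27.2 to 30.5 in the labelled knockout and from 28.5 to 29.6 in wild type. C1qa, Cd163 and Mertk of this list were above background on no array. Stromal genes had 4 of 7 at least 2-fold higher, with a median of 1.93 and summed levels of 9.46 to 15.5 in the labelled knockout and 4.69 to 4.70 in wild type. Col3a1, a fibrillar collagen gene, was 4.41-fold and Dcn, which encodes decorin, 5.36-fold higher. B cell genes had 5 of 10 higher and a median of 0.96, with summed levels of 14.0 to 24.1 in the labelled knockout and 14.3 to 20.3 in wild type.

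T cell genes had 0 of 12 at least 2-fold higher and 1 lower, against 13.2% and 6.81% of all measured genes. Their median was −0.58, with summed levels of 24.7 to 26.7 in the labelled knockout and 39.7 to 77.4 in wild type. NK cell genes had 1 of 7 higher and 3 lower (median −0.96), with summed levels of 536.6 to 579.9 in the labelled knockout and 214.9 to 239.6 in wild type. That sum and that median differ in direction, and Klra1, a surface receptor gene, had the brightest probe, at 9.14 in the labelled knockout and 7.65 in wild type under DSS. Eosinophil and mast cell genes had 0 of 7 higher and 2 lower (median −0.94), with summed levels of 6.82 to 6.84 in the labelled knockout and 13.3 to 18.8 in wild type and with Epx and Prg2, which encode eosinophil granule proteins, above background on no array. Intestinal epithelial genes had 2 of 14 higher and 4 lower. Their median was −0.50, with summed levels of 49.0 to 50.7 in the labelled knockout and 50.9 to 162.7 in wild type. Erythroid genes, a sign of blood in the preparation, had 1 of 6 higher and 1 lower (median 0.70), with summed levels of 1593 to 2239 in the labelled knockout and 1510 to 2471 in wild type. The part of these cells in the neutrophil differences was not tested.

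**Figure D4:**
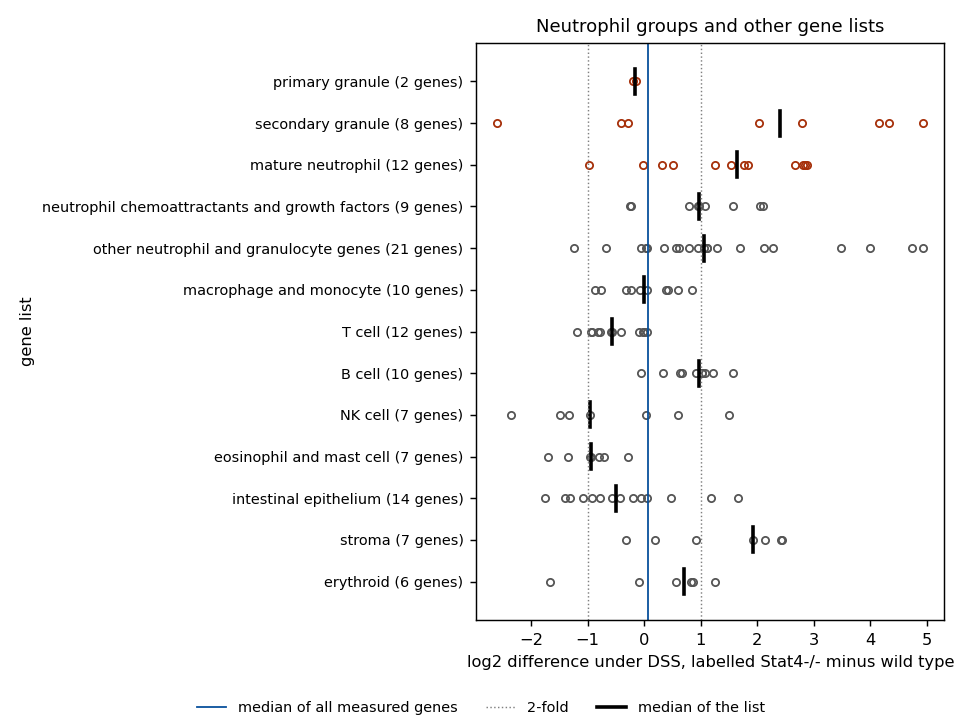
Log2 difference of the labelled knockout minus wild type under DSS for genes measured on both arrays, by list. Circles are genes, black bars list medians, the blue line the median of all measured genes (0.08) and dotted lines 2-fold. Secondary granule and mature neutrophil genes have medians of 2.41 and 1.65, primary granule genes one of −0.17, and macrophage and monocyte genes one of −0.01.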

How the data were processed

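Single-colour (Cy3) Agilent arrays of 4 samples were used. Per the file headers, the authors obtained spot intensity values with Agilent Feature Extraction 11.0.1.1 (9.1 per the submitters' processing notes), whose processed signal is background-subtracted; its flags of 0 or 1 and its signal error were used as deposited. The authors also deposited normalized log2 values, whose medians were 3.31, 3.31, 2.54 and 3.31 (labelled knockout DSS+LIF, labelled knockout DSS, wild type DSS+LIF, wild type DSS) and whose normalization, centring and floor are not given in the sources used here. They correlated at 0.971 to 0.992 with the log2 scanner values.

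Spots with outlier flags were left out, log2 values of a probe's spots were averaged and the array's 75th percentile was subtracted. The well-above-background mark was required of 50% or more of the spots of a probe. RefSeq accessions, through a GRCm38.p6 gene table used for names, named 27234 of 39429 probes (69.1%). The probe with the highest mean stood for a gene. A gene was measured when that probe was above background on both arrays. Where all its probes were dim on 1 array, the bound sets the bright value against the dim value or the dimmest detected probe of that array, whichever is higher. A scanner error given beside a bound is that of the difference between the signals and not of the bound. The scanner error of a gene's level, where above background, ran from 0.14 to 0.32 (log2), and replicate spots gave a median SD of 0.10 to 0.11 for a difference. No spot was saturated, and the number of arrays limits the precision. The steps were tested on simulated data built from 1 array, with the same brightness and background marks on every simulated array. Unequal brightness and the bounds were not part of that test. Python 3.11.15, pandas 2.3.3, R 4.3.3 and limma 3.58.1 were used.

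The 32 genes, their groups, the lists and the alternatives were chosen with earlier results of these data known. All 32 genes are named. From the lists of further neutrophil genes and of attracting signals up to 6 genes with the highest absolute difference under DSS are named, and from lists of other cell types 2 with the highest level in the labelled knockout with DSS, of which a part is given; others named were chosen after their values were seen.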

Additional observations from a re-analysis of the deposited data

Results flagged for a closer look

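For 8 of the 14 neutrophil genes measured on all 4 arrays the LIF difference had opposite signs in the labelled knockout and in wild type, as it had for 53.5% of 8045 genes. With 1 array per group these differences were not tested, and the wild type array DSS+LIF correlated less with the other arrays. Chil3 had the widest gap, −1.44 in the labelled knockout and 1.56 in wild type, a difference of −3.0. The difference was 1.61 for Csf3r (0.58 and −1.04) and 1.55 for Trem1 (0.33 and −1.22). It was 1.1 for Hp (0.28 and −0.82), 0.77 for Pglyrp1 (0.56 and −0.21) and −0.56 for Lcn2 (−0.24 and 0.33). For Elane (0.34, from 0.03 and −0.31) and S100a9 (0.27, from 0.06 and −0.21) the value in the labelled knockout lay within the scanner error. S100a9, with quantile scaling, with both normexp settings and in the authors' deposited table, was positive in both genotypes (0.32 to 0.36 in the labelled knockout and 0.03 to 0.04 in wild type), so its signs were no longer opposite.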

How the results depend on the processing

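The 13 genes at least 2-fold higher in the labelled knockout under DSS stayed on the higher side under each alternative. With normexp (offset 50) and quantile scaling 9 of these 13 reached 2-fold, without Lcn2, Padi4, Il1r2 and Clec4e, and Padi4 also fell short with normexp without an offset and with the mean over probes. Restricted to probes above background on all 4 arrays, 8 genes were measured as higher, because fewer genes enter. The lower count of 1 under DSS became 0 with normexp (offset 50) and 3 with no background filter. Under DSS+LIF 19 genes were higher and 2 lower with no background filter, and 0 lower with normexp (offset 50). For LIF in the labelled knockout 4 genes were higher with no background filter, and the median of 0.03 turned to −0.0323 with normexp (offset 50), −0.0783 with normexp without an offset and −0.13 among probes above background on all 4 arrays; the cause was not tested. For LIF in wild type the counts were 0 higher and 1 lower with normexp (offset 50), 1 higher with normexp without an offset, 7 higher and 5 lower with no background filter, and 1 higher among probes above background on all 4 arrays. The secondary granule median of 2.41 became 1.47 with normexp (offset 50), 2.01 with normexp without an offset, 1.53 with no filter, 2.03 among probes above background on all 4 arrays and 2.53 in the authors' deposited table. The mature neutrophil median of 1.65 became 0.59, 1.1, 1.39 and 1.39 under the first 4 of these, and 1.39 with the mean over probes. The median difference of LIF differences (0.36) was 0.49 with centring on the probes above background on all 4 arrays. No replicate could be left out, and no paired analysis was possible because each group has 1 array. Over all genes normexp (offset 50) left 298 higher and 194 lower under DSS, where the values scaled by the percentile gave 1387 and 715, and no background filter gave 5877 and 2006. Dim signal over background limits the genes near the detection mark, among them Ngp, Padi4, Il1r2, Ncf1, Cybb and, on the labelled knockout arrays, Cebpe.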

Other observations

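Several further genes that neutrophils are known to express were well above background on no array: Cxcr2, the receptor gene for the CXC chemokines, Bpi, which encodes a bactericidal granule protein, and Ms4a3, a gene of myeloid precursors. Itgam, which encodes the integrin subunit CD11b, was 2.15-fold higher in the labelled knockout under DSS (levels of 1.45 and 0.35) and differed by −2.93 (log2) under DSS+LIF (levels of 1.20 and 4.13). The value under DSS+LIF rests on the array that stood apart. These genes were chosen after their values were seen.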
